A study of Mus musculus with 6 samples.

Results

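Genes of bone morphogenetic protein (BMP) signalling were examined in the skin of mice with alopecia areata and of unaffected mice. The 10 genes were the ligands Bmp2, Bmp4, Bmp6, Bmp7 and Bmp8a, the secreted antagonists Nog, Sostdc1 and Grem1, the receptor Bmpr1a and the target gene Id1. They were taken as every probe set whose only symbol in the platform annotation was one of these genes. This gave 18 of 34945 probe sets with 1 symbol, and 10 of 18193 genes, all of them measured and none removed by a filter on dim signals. The study compared 3 mice with alopecia areata, sampled in affected hairless skin, with 3 unaffected mice, by total RNA on 1 expression array per mouse. All 6 mice were of the inbred strain C3H/HeJ, in which this autoimmune hair loss can arise spontaneously. The labels name no treatment or transgene, and nothing used here states age, sex, body site or hair cycle stage. Values are log2 signals after RMA, which subtracts background, brings the arrays to a common scale and gives 1 value per probe set, so that a difference of 1 is a doubling of signal. Levels of different probe sets are not comparable with each other.

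BMPs are secreted dimers that bind pairs of type I and type II receptor kinases, which phosphorylate SMAD1, SMAD5 and SMAD9. These join SMAD4 and switch on targets such as the Id genes. Antagonists such as noggin and gremlin bind the ligands outside the cell and keep them from their receptors. In hair follicles BMP signalling holds stem cells of the bulge at rest between growth phases, and in the growing follicle it drives matrix cells to differentiate into the hair shaft, while noggin and other antagonists open the way to growth.

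Grem1 and Bmp6 were the members with the smallest p-values, and their promoters are shown because both were lower in every alopecic array and had an entry in the RefSeq promoter table of GRCm38.p6. The table held 5 of the 10 genes (Bmp4, Bmp6, Bmp8a, Grem1 and Bmpr1a). Each sequence runs 5′ to 3′ on the strand of the gene, from 250 bases before the start of the gene to 50 after it. Capitals mark matches to the motifs searched. The Grem1 sequence lies at chr2:113758599-113758898 on the minus strand and the Bmp6 sequence at chr13:38345466-38345765 on the plus strand.
Grem1: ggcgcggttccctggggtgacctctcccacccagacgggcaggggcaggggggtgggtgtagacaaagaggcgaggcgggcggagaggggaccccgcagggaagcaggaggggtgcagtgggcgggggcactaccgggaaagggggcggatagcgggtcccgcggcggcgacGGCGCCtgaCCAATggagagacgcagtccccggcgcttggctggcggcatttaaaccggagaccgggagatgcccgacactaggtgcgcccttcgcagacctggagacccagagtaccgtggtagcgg
Bmp6: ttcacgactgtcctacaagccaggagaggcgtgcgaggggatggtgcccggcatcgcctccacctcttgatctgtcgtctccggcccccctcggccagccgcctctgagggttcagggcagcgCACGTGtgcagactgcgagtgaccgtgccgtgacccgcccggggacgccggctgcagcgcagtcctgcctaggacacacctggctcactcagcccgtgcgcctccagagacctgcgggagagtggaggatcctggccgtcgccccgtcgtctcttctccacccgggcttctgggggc
The motifs were searched on both strands. They were a GC-rich element that BMP-activated SMADs can bind (GGCGCC), an E-box, which is a binding site of helix-loop-helix proteins (CACGTG), the promoter element called the CCAAT box (searched by those letters) and the TATA box (searched as TATAAA). No match overlapped another in the sequences shown. The Grem1 window held the SMAD element once, starting 78 bases before the start of the gene, and the CCAAT box once, starting 69 bases before it. The Bmp6 window held the E-box once, starting 127 bases before the start. Of 32851 promoter windows of 300 bases, 11.9% held the SMAD element, 37.4% the CCAAT box, 7.15% the E-box and 13.6% the TATA box. The SMAD element also occurred in the Bmpr1a window and the E-box in the Bmp4 window, while the Bmp8a window held none of the 4 motifs. The GC content was 70.7% for Grem1 and 69.3% for Bmp6, against a median of 52.7% over all windows. These matches describe letters and not bound sites.

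None of the 10 genes passed the test over all genes. With limma, a moderated two-sided test, and Benjamini-Hochberg adjustment over 18193 genes, 0 of 10 had an adjusted p under 0.05, against 0.275% of all genes (48 higher and 2 lower in alopecic skin). Of the 10 genes 3, the antagonist Grem1 and the ligands Bmp2 and Bmp6, had an unadjusted p under 0.05. All 3 were lower, where 2.35% of all genes were lower at that level and 7.15% had such a p in either direction. In the same 3 genes each alopecic array lay below each unaffected one, as in 6.12% of all genes. In 9 of the 10 genes the difference was below 0, with a median of -0.27, against 9354 of 18193 genes and a median of -0.01 over all genes. With 1 array left out, between 6 and 9 of the 10 were below 0 and their median ran from -0.73 (without unaffected replicate 3) to -0.10 (without unaffected replicate 2). In bulk skin fewer cells of a type and less RNA per cell cannot be told apart.

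**Figure D1:**
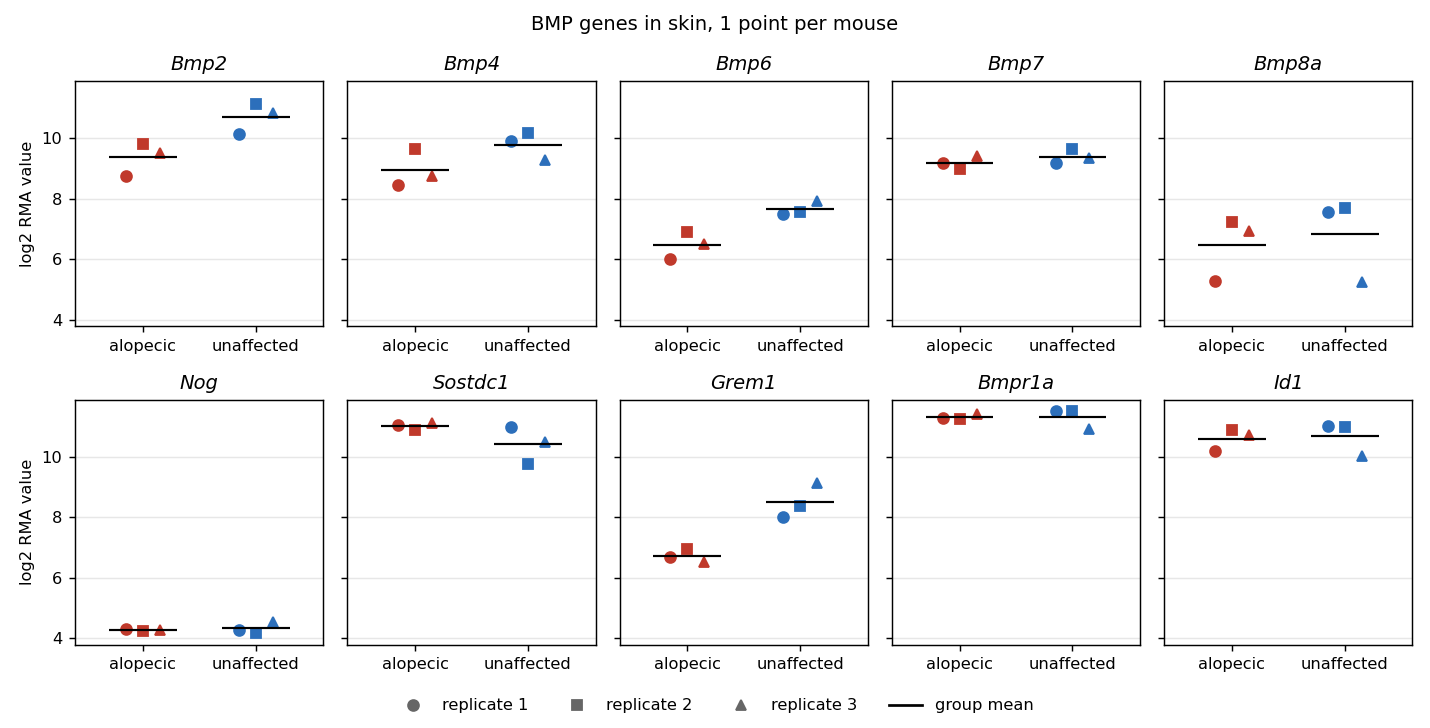
Log2 RMA values (vertical axis, the same in all panels) of the 10 BMP genes in 3 alopecic and 3 unaffected mice, for the brightest probe set of each gene; each point is 1 array and the black line is the group mean. The groups do not overlap for Bmp2, Bmp6 and Grem1, and Bmp8a is low in alopecic replicate 1 and unaffected replicate 3.

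Unaffected replicate 3 stood apart from the other arrays. It carried 42.2% of the squared deviations of all genes from their group means, and its highest correlation across genes with another unaffected array was 0.929, against 0.979 to 0.988 for the other 5 arrays within their groups. The mean log2 value of 21 measured genes of the growing hair matrix and shaft was 6.20 there. It was 10.69, 11.04 and 11.56 in the alopecic arrays and 12.27 and 12.86 in unaffected replicates 1 and 2. This list also held genes of the inner root sheath. A list of 10 epidermal genes, the check of the tissue, had means from 12.28 to 13.20 on all 6 arrays. Where leaving out 1 array moved a median over a list by over 1.5 times, its values or its range over the 6 fits with 1 array left out are given beside it.

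Among the ligands, Bmp2, which signals from dermis and fat to resting follicles and is also made in the hair matrix, was lower in alopecic skin. Its log2 values were 8.75, 9.82 and 9.52 in alopecic replicates 1, 2 and 3 and 10.13, 11.14 and 10.82 in the unaffected replicates. Every alopecic array lay below the lowest unaffected array, and the gap between the nearest arrays was small beside the spread within each group. The difference was -1.34 (SE 0.37, 95% interval -2.26 to -0.41), or 2.52-fold lower, with a limma adjusted p of 0.503. It was -1.27 without unaffected replicate 3.

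Bmp6, a ligand known from the inner bulge layer that helps to keep stem cells quiet, had a signal whose mean lay below the median of all genes. Alopecic replicates 1, 2 and 3 had log2 values of 5.997, 6.90 and 6.49, and unaffected replicates 1, 2 and 3 had 7.48, 7.57 and 7.93. The unaffected arrays were close together and all above the alopecic ones. The difference was -1.20 (SE 0.26, 95% interval -1.84 to -0.56), or 2.30-fold lower on a scale that compresses dim signals, with a limma adjusted p of 0.309. Without unaffected replicate 3 it was -1.07.

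Bmp4, a ligand made by the dermal papilla and dermal fibroblasts, had 8.44, 9.63 and 8.76 in alopecic and 9.90, 10.18 and 9.27 in unaffected replicates 1, 2 and 3. The groups overlapped, since alopecic replicate 2 lay above unaffected replicate 3. The difference was -0.84 (SE 0.38, 95% interval -1.79 to 0.10; limma adjusted p = 0.76), and it was -1.10 without unaffected replicate 3 and -0.59 without alopecic replicate 1.

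Bmp7, a ligand of epidermis and dermal papilla, was measured by 3 probe sets that did not share a direction. The brightest gave 9.19, 8.98 and 9.42 in alopecic and 9.18, 9.64 and 9.34 in unaffected replicates 1, 2 and 3, with a difference of -0.19 (SE 0.18, limma adjusted p = 0.872) that was -0.07 without unaffected replicate 2. In the fit over all probe sets the others differed by 0.24 (SE 0.36), a value that turned to -0.07 without unaffected replicate 3, and by -0.23 (SE 0.47), which turned to 0.03 without alopecic replicate 2 and to 0.02 without unaffected replicate 2. Neither passed that test.

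Bmp8a, a ligand of the same subfamily as Bmp7, had the widest spread of the 10 genes, with an SD of 1.11 over the 6 arrays. Its log2 values were 5.29, 7.22 and 6.94 in alopecic and 7.57, 7.70 and 5.24 in unaffected replicates 1, 2 and 3. The low arrays, alopecic replicate 1 and unaffected replicate 3, came from different groups and lay below the median of their arrays. The difference was -0.35 (SE 0.84, 95% interval -2.41 to 1.71; limma adjusted p = 0.947), and its direction depended on single mice: it was -1.15 without unaffected replicate 3 and 0.24 without alopecic replicate 1. Leaving out unaffected replicate 1 or 2 gave 0.01 or 0.08.

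Grem1, which encodes the antagonist gremlin and is made by connective tissue cells, had the largest difference of the 10 genes. The alopecic replicates stood at 6.70, 6.93 and 6.52 and the unaffected replicates at 7.999, 8.36 and 9.13. All alopecic arrays lay within a narrow range more than 1 log2 unit below the lowest unaffected array. The difference was -1.78 (SE 0.31, 95% interval -2.54 to -1.02), or 3.44-fold lower, with a limma adjusted p of 0.166. It was -1.46 without unaffected replicate 3, the highest of the arrays. With a weight estimated for each array, which gave unaffected replicate 3 the lowest weight of 0.227, the difference was -1.49 and the limma adjusted p was 0.0492. More genes passed in that setting over all genes, 139 against 50 in the main fit.

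Sostdc1, an antagonist of the follicle that also modulates WNT signalling, was the 1 gene of the 10 with a difference above 0, on both of its probe sets. The brighter gave 11.05, 10.88 and 11.12 in alopecic and 10.99, 9.75 and 10.49 in unaffected replicates 1, 2 and 3. The alopecic arrays were close together, and unaffected replicate 1 lay among them. The difference was 0.61 (SE 0.32, 95% interval -0.18 to 1.39; limma adjusted p = 0.802), and it was 0.28 without unaffected replicate 2. The second probe set gave 10.64, 10.62 and 11.14 against 10.46, 9.40 and 10.04, with all alopecic arrays above the unaffected ones, as in 5.79% of all probe sets. Its difference was 0.83 (SE 0.30; limma adjusted p = 0.771 over all probe sets).

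Nog, which encodes noggin, was dim, with log2 values of 4.30, 4.25 and 4.26 in alopecic and 4.29, 4.16 and 4.53 in unaffected replicates 1, 2 and 3. All 6 values lay below the median of their arrays, which ran from 6.11 to 6.17, so a difference in this gene was hardly measurable. It was -0.06 (SE 0.13, 95% interval -0.37 to 0.26), and 0.05 without unaffected replicate 3.

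Bmpr1a, the type I receptor that the hair matrix needs to form a shaft, was measured by 6 probe sets. The brightest gave 11.26, 11.24 and 11.42 in alopecic and 11.52, 11.52 and 10.92 in unaffected replicates 1, 2 and 3. The alopecic arrays lay between the unaffected ones, and the difference was -0.01 (SE 0.19, 95% interval -0.49 to 0.47), with a sign that changed as single arrays were left out. The other 5 probe sets differed by between -0.20 and 0.12, and 0 of 6 passed the test over all probe sets, where 0.169% of probe sets did (the smallest unadjusted limma p of the 6 was 0.424). For the brightest probe set a shift of more than 0.49 in either direction lay outside the interval.

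Id1, a direct target of BMP signalling, differed between the groups by less than the spread within each of them. Its values were 10.19, 10.89 and 10.70 in alopecic and 10.996, 10.995 and 10.03 in unaffected replicates 1, 2 and 3. The lowest array of each group was again alopecic replicate 1 or unaffected replicate 3. The difference was -0.08 (SE 0.33, 95% interval -0.89 to 0.74; limma adjusted p = 0.97). It was -0.40 without unaffected replicate 3 and 0.12 without alopecic replicate 1, so that neither a lower nor an equal level was shown.

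**Figure D2:**
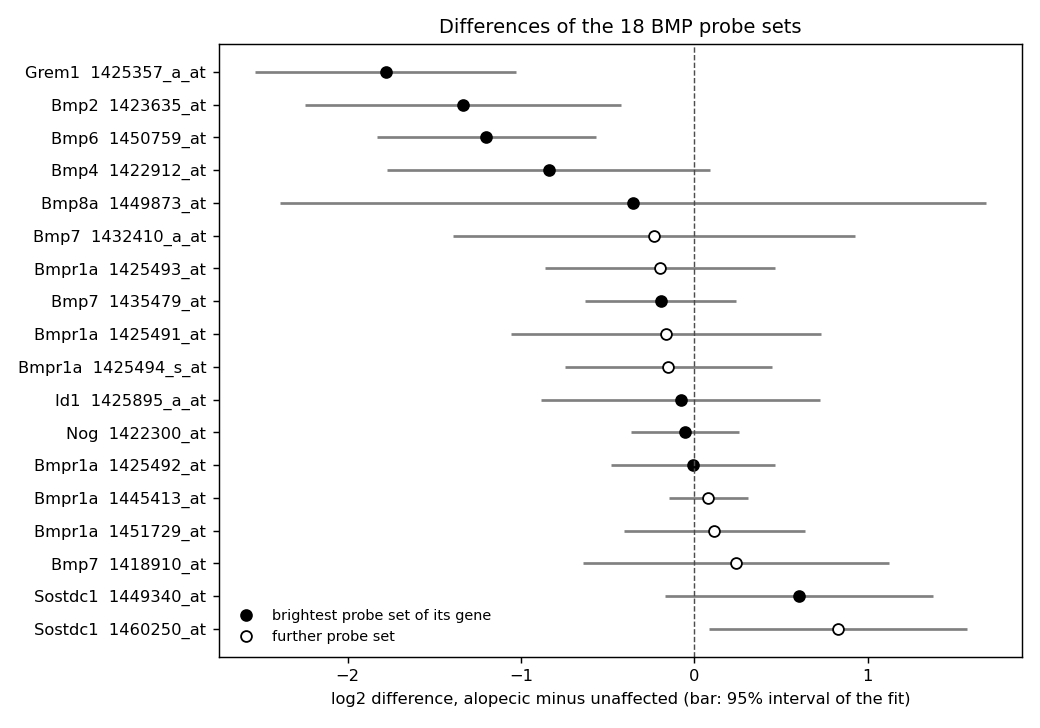
Log2 differences, alopecic minus unaffected (horizontal axis), of all 18 probe sets of the 10 BMP genes in the fit over all probe sets; bars are 95% intervals of the fit, filled points mark the brightest probe set of a gene and open points the others. The intervals of Grem1, Bmp2 and Bmp6 lie below 0 and that of the second Sostdc1 probe set above it, but none of the 18 passed after adjustment.

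The other genes of the pathway were taken from 5 lists by role, with 50 entries of which 46 were measured. None rose or fell at the adjusted threshold (0 of 46 by limma, against 0.275% of all genes). Of the 46 genes 2, Smad1 and Fstl3, had an unadjusted limma p under 0.05, against 7.15% of all genes. Their median difference was -0.11, and 34 of 46 were below 0, against 9354 of 18193 genes. With 1 array left out, 27 to 37 of the 46 were below 0, with medians from -0.17 to -0.06. In 4 genes the groups did not overlap with alopecic arrays lower and in 2 with alopecic arrays higher, where 6.12% and 6.93% of all genes did so.

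Other ligands, 6 of 9 entries measured, all had a mean below the median of all genes and a median difference of -0.17 (-0.23 to -0.09 with 1 array left out). Bmp5 differed by -0.47 (SE 0.41), by -0.01 without unaffected replicate 3 and by -0.31 with the mean of all its probe sets. Gdf2, a ligand of endothelial receptors, differed by -0.37 (SE 0.26) and by -0.09 without unaffected replicate 2, and the joint factor Gdf5 differed by 0.25 (SE 0.23), a value that was -0.0033 without alopecic replicate 2. Of 13 other measured antagonists 9 had a mean below the median of all genes. A difference below 0 was found in 12 of the 13 (9354 of 18193 over all genes), with a median of -0.35. Without unaffected replicate 3 the median was -0.15 and without unaffected replicate 2 it was -0.13, and 10 to 13 of the 13 were below 0 with 1 array left out. The secreted antagonist Nbl1 differed by -0.69 (SE 0.34), by -0.42 without unaffected replicate 3 and by -1.05 without unaffected replicate 1. The chordin-like Chrdl1 differed by -0.68 (SE 0.56), by -0.09 without unaffected replicate 2 and by -1.06 without unaffected replicate 1. With the mean of all its probe sets Chrdl1 differed by -0.48. Bmper, which binds BMPs at the cell surface, differed by -0.56 (SE 0.25) and by -0.28 without alopecic replicate 1. Bmper was lower in every alopecic array, with 6.72, 7.46 and 7.62 in alopecic and 7.87, 7.82 and 7.78 in unaffected replicates 1, 2 and 3. Fstl3, a follistatin-like antagonist of activins and some BMPs chosen here after its values were seen, also did not overlap, at -0.35 (SE 0.12).

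Of 10 other receptors and coreceptors 8 were below 0, with a median of -0.06 (-0.17 to -0.01 with 1 array left out, when 5 to 8 were below 0). The coreceptor Rgma differed by 0.34 (SE 0.15), with 8.03, 8.13 and 8.47 in alopecic and 7.79, 7.84 and 8.001 in unaffected replicates 1, 2 and 3. Here every alopecic array was higher, though by less than the spread within the alopecic group, and the difference was 0.21 without alopecic replicate 3. The type II receptor Acvr2b differed by -0.42 (SE 0.52) and by 0.16 without unaffected replicate 3, and the type I receptor Bmpr1b by -0.37 (SE 0.38), with a range from -0.80 to -0.15 when 1 array was left out. These values are of the brightest probe set. With the mean of all probe sets of a gene Acvr2b differed by -0.23 and Bmpr1b by -0.04. The coreceptor Hjv, chosen after its values were seen, ran from 6.43 in unaffected replicate 2 to 11.80 in unaffected replicate 3; hemojuvelin is made by skeletal muscle, and the mean of 8 muscle genes ran from 11.46 to 14.59 on the same arrays. The part of muscle in the Hjv values was not tested.

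Among 8 SMADs and their regulators, Smad1, the mediator of BMP signals, was higher in every alopecic array. It stood at 11.30, 11.63 and 11.57 in alopecic and 11.05, 11.25 and 10.95 in unaffected replicates 1, 2 and 3, a difference of 0.42 (SE 0.14, limma adjusted p = 0.613). With the mean of all its probe sets the Smad1 difference was 0.43 with a wider SE of 0.21. The inhibitory Smad6 and Smad7, which BMP signals induce, differed by -0.39 (SE 0.56) and -0.35 (SE 0.40). Without unaffected replicate 2 they differed by 0.02 and 0.04, and without unaffected replicate 3 by -1.01 and -0.71. The list had a median of -0.09 (-0.11 to 0.03 with 1 array left out).

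The 9 other targets had a median difference of 0.02, which ran from -0.46 without unaffected replicate 3 to 0.37 without unaffected replicate 1. Dlx3, a homeobox gene of the differentiating hair matrix, differed by 0.62 (SE 1.44) and by -0.96 without unaffected replicate 3. Id2 differed by 0.37 (SE 0.20) and by 0.23 without unaffected replicate 3, and the Notch and BMP target Hey1 by -0.35 (SE 0.33), with a range from -0.71 to -0.13 when 1 array was left out. With the mean of all probe sets of a gene, in place of the brightest, Dlx3 differed by 0.13 and Id2 by 0.18. None of the 9 passed the test.

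**Figure D3:**
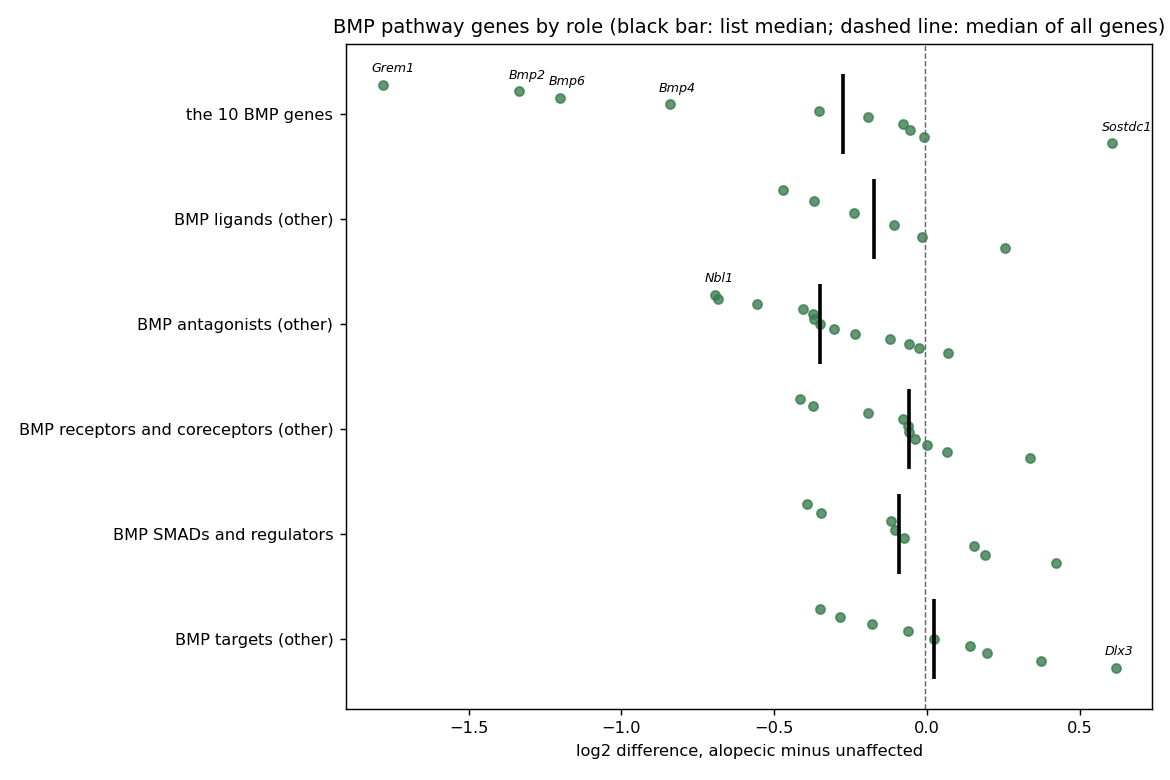
Log2 differences, alopecic minus unaffected (horizontal axis), of the 10 BMP genes and of 46 other pathway genes in 5 lists by role; each point is 1 gene, black bars are list medians and the dashed line is the median of all genes (-0.01). Grem1, Bmp2 and Bmp6 lie farthest to the left. Of 13 other antagonists 12 lie below 0 (9354 of 18193 over all genes), and 9 of the 13 have a mean signal below the median of all genes.

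Dlx3, Msx2 and Bambi were low in the same arrays as Bmp8a. Dlx3 stood at 8.48, 10.61 and 10.63 in alopecic and 10.68, 11.05 and 6.14 in unaffected replicates 1, 2 and 3. Msx2, a homeobox target of BMP in the matrix, and Bambi, a decoy receptor that BMP induces, were chosen after their values were seen. Msx2 had 7.86, 9.76 and 9.75 in alopecic and 10.29, 10.65 and 6.01 in unaffected skin, and Bambi had 8.75, 10.26 and 10.21 and 10.89, 11.63 and 7.81. In all 3 genes, as in the members Bmp4, Bmp8a and Id1, unaffected replicate 3 was the lowest unaffected array and alopecic replicate 1 the lowest alopecic array. Some other pathway genes, among them Smad6 and Smad7, had the same lowest arrays. Unaffected replicate 3 lay below the mean of unaffected replicates 1 and 2 by a log2 difference of -4.72 for Dlx3, -4.46 for Msx2 and -3.45 for Bambi. For the members Bmp8a, Id1 and Bmp4 this difference was -2.39, -0.96 and -0.77. For Grem1 and Bmp6 the same difference was 0.95 and 0.40, so that these lay higher in that array.

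**Figure D4:**
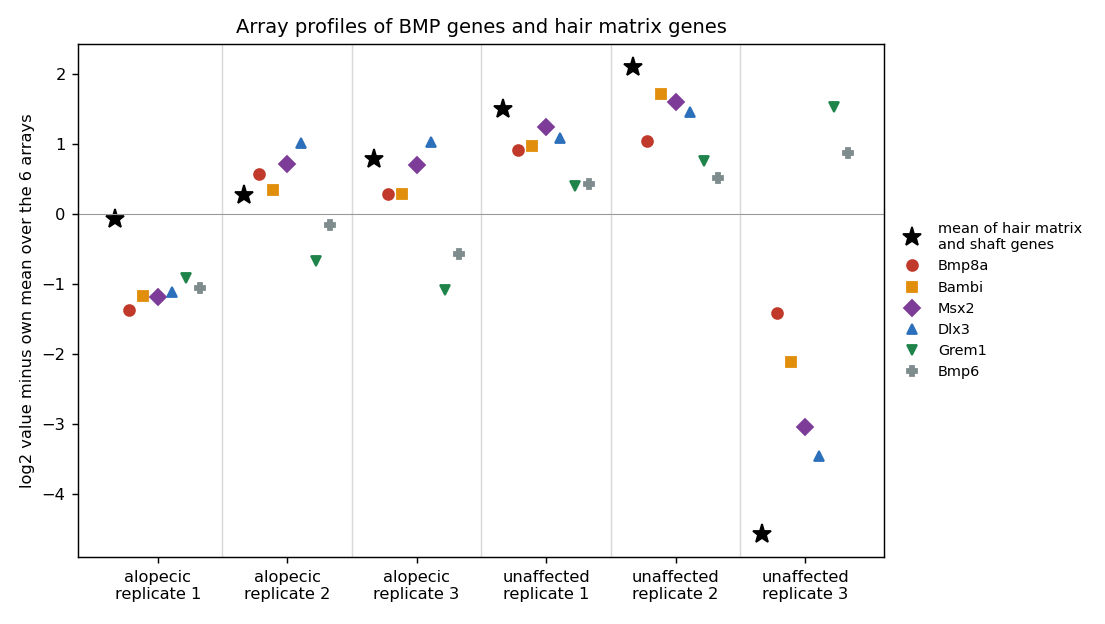
Log2 values minus the own mean of each gene over the 6 arrays (vertical axis) for Bmp8a, Bambi, Msx2, Dlx3, Grem1 and Bmp6, and for the mean of 21 hair matrix and shaft genes (stars); columns are the arrays. Bmp8a, Bambi, Msx2 and Dlx3 lie low in alopecic replicate 1 and unaffected replicate 3, while Grem1 and Bmp6 are highest in unaffected replicate 3.

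Levels of marker genes of other cells were set beside those of the BMP genes. The list of hair follicle stem cell genes had a difference below 0 in 8 of 9 (9354 of 18193 over all genes), with a median of -0.85. Of these 9 genes 3 had an unadjusted limma p under 0.05, against 7.15% of all genes, and 0 passed after adjustment. The median was -0.62 without unaffected replicate 3 and -0.60 without alopecic replicate 2. The summed linear level of the list was 14145 to 16406 in alopecic and 21824 to 31233 in unaffected skin. The brightest gene of the list, Krt15, was the largest part of these sums. Taken singly, 3 of the 9 genes had every alopecic array below every unaffected one, against 6.12% of all genes. Its member Fgf18, a growth factor of the resting bulge, stood at 5.25, 5.64 and 5.19 in alopecic and 7.06, 7.94 and 10.41 in unaffected replicates 1, 2 and 3, a difference of -3.11 (SE 0.85, limma adjusted p = 0.485), the lowest of all 18193 genes. Without unaffected replicate 3 it was -2.14. Krt15, a keratin of the bulge, differed by -0.86 (SE 0.25). Neither passed the test, and both were highest in unaffected replicate 3, as were Grem1 and Bmp6. Fgf18 and Krt15 were chosen after their values were seen, and other genes of the list did not all share this pattern. Cd34 and Nfatc1 were also highest in that array. Lgr5, Sox9 and Foxc1 were lowest there among the unaffected arrays, and Lhx2 and Tbx1 were neither.

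Adipocyte genes, 7 measured, had a median of -0.42 (-0.71 without unaffected replicate 3, and near 0 when unaffected replicate 2 was left out) and a summed level of 12903 to 23093 in alopecic and 22512 to 34296 in unaffected skin. Genes of fibroblasts and matrix (8 measured) had a median of -0.02 (-0.26 to 0.27 with 1 array left out), with summed levels of 23080 to 48496 and 24478 to 57226. Dermal papilla genes (13 measured) had a median of 0.06 (-0.25 to 0.42 likewise), with summed levels of 1903 to 4425 and 1427 to 4735. Hair matrix and shaft genes had a median of 0.37 over all arrays, -1.28 without unaffected replicate 3 and 1.76 without unaffected replicate 2. Their summed levels were 83074 to 104105 in alopecic and 15258 to 238782 in unaffected skin. The list member Lgals7, named after its values were seen, was bright on every array, from 13.76 in unaffected replicate 3 to 14.47 in alopecic replicate 3. It made up most of the lowest sum, and the median of 0.37 was its own difference. Of 7 measured T cell genes 6 had every alopecic array above every unaffected one, against 6.93% of all genes, with a median over the list of 1.73 and summed levels of 1415 to 3158 against 708 to 870. Cell cycle genes had a median of 1.55, with 0.54 when unaffected replicate 3 was left out and 2.47 without unaffected replicate 1. The median of endothelial genes was -0.31 (-0.49 to -0.05 with 1 array left out) and that of macrophage genes 0.26 (-0.26 to 0.69). No gene of any of these marker lists passed the adjusted threshold, and the part of these cells in the BMP results was not tested.

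Each of the 3 non-overlapping genes kept a difference below 0 when any single array was left out. Grem1 then ran from -2.03 to -1.46, Bmp2 from -1.62 to -1.03 and Bmp6 from -1.42 to -0.97. Bmp4 ran from -1.19 to -0.59 and Sostdc1 from 0.28 to 0.89. None of the 10 genes passed the adjusted threshold in any of these 6 fits. For groups that do not overlap this direction is fixed by construction, and only the size of the difference bears on how much it rests on 1 mouse.

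**Figure D5:**
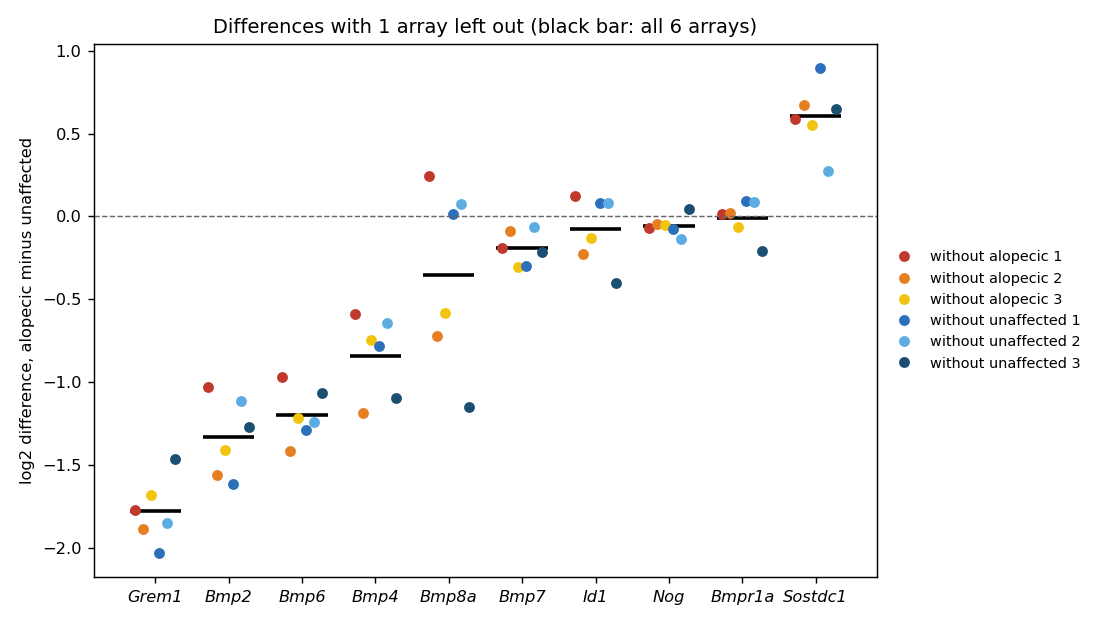
Log2 differences, alopecic minus unaffected (vertical axis), of the 10 BMP genes with all 6 arrays (black bars) and with each array left out in turn (points). Grem1, Bmp2, Bmp6 and Bmp4 stay below 0 and Sostdc1 above it, while Bmp8a ranges from -1.15 to 0.24.

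The genes whose profile over the 6 arrays was most like that of a member were sought for Bmp2, the member with the largest SD (0.874) among those with a mean above the median of all genes. Likeness was the root mean square difference between profiles, each centred on its own mean, over 9095 genes. The nearest was the tight junction gene Cldn3, measured by a probe set of a kind that can also bind similar transcripts, at 0.242 log2 units, with 7.002, 7.64 and 7.33 in alopecic and 8.01, 9.12 and 8.26 in unaffected replicates 1, 2 and 3. It was followed by Rhpn2 at 0.295, Prrg3 at 0.296, Thsd1 at 0.297 and Gdf10, a TGF-beta family ligand also named BMP3B, at 0.332. Their differences ran from -1.29 for Rhpn2 to -0.95 for Prrg3, against -1.34 for Bmp2, and none passed the test. Since these genes were chosen by likeness to Bmp2 on the same arrays, differences near that of Bmp2 follow from the choice. With 6 arrays many genes share such a profile, and the order is a description.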

How the data were processed

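RNA was purified with Qiagen miRNeasy and labelled by a 3' IVT Express Kit, per the labels' protocols. The authors deposited log2 values made by RMA, per the submitters' processing notes; no source used here gives its version or the genome build. The 45101 probe sets held 64 controls and 34945 with 1 gene symbol. For 34741 of these the gene identifier was found in RefSeq of GRCm38.p6 and the symbol given there was used, whether or not it differed. The brightest probe set by mean stood for a gene (18193 genes). Groups were compared with limma 3.58.1 in R 4.3.3 (lmFit, eBayes, 3 against 3, no covariates), with Benjamini-Hochberg adjustment over all genes and a threshold of 0.05; all 34945 probe sets were also fitted as separate features. Each SE is that of the fitted difference. The fit was tested on simulated data. Each array came from a different mouse, per the series design. An array has no read depth, and 3 arrays per group limit the precision.

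The members and all lists were chosen with earlier results of these data known. Genes named are all members, the 3 largest absolute differences of each other pathway list with any past the threshold, and the 5 genes nearest in profile to the member of largest SD; the text marks any other gene as picked with its values known. Alternatives were a replicate block, the mean of a gene's probe sets, a filter on dim genes, median centring, quantile normalization, trended robust variances, array weights and leaving out arrays. Sequences come from RefSeq promoters.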

Additional observations from a re-analysis of the deposited data

How the results depend on the processing

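The count of BMP genes past the threshold was 0 in 13 of 14 alternatives and 1 with array weights (Grem1), and the count of other pathway genes was 0 in all 14. The number of changed genes was 50 (59 probe sets). It was 139 genes and 169 probe sets with array weights, and 4 to 39 genes and 0 to 49 probe sets with 1 array left out. The shared replicate numbers were not treated as pairs. Same-numbered arrays deviated from their group means with correlations of -0.132, -0.197 and -0.33. With 3 arrays per group such correlations depend on each other, so they cannot settle whether the numbers mark pairs. With a replicate block in limma 0 genes and 0 probe sets passed (873 and 1550 at an unadjusted p under 0.05). Without alopecic replicate 1 and unaffected replicate 3, chosen after seeing the data, 51 genes and 69 probe sets passed, 0 of them BMP genes; Grem1, Bmp2 and Bmp6 then differed by -1.45, -0.97 and -0.84. Grem1, Bmp6, Bmp8a and Nog have a mean below the median of genes and were not tested with dim genes left out.

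The signs of several differences were not stable, also of some that were not near 0, such as Dlx3 at 0.62 in the main fit. With array weights Acvr2b, Bmpr1b, Dlx3 and Msx2 stood at 0.16, 0.20, -0.11 and -0.58. Without both alopecic replicate 1 and unaffected replicate 3, Acvr2b, Dlx3, Msx2 and Nog stood at 0.39, -0.24, -0.71 and 0.0316. In that fit a further Bmp7 probe set stood at -0.0581 and the third Bmp7 probe set at -0.985. With 1 array left out, the differences ran from -0.72 to 0.155 for Acvr2b, -1.52 to 0.389 for Bambi, -1.15 to 0.244 for Bmp8a, -0.209 to 0.0901 for Bmpr1a, -0.958 to 1.498 for Dlx3, -0.00325 to 0.386 for Gdf5, -0.40 to 0.121 for Id1, -1.35 to 0.973 for Msx2, -0.137 to 0.0457 for Nog, -1.01 to 0.0159 for Smad6 and -0.707 to 0.0427 for Smad7. For further probe sets they ran from -0.0683 to 0.568 and -0.694 to 0.0287 for Bmp7, and from -0.542 to 0.117, -0.422 to 0.0373, -0.367 to 0.00866 and -0.0897 to 0.308 for Bmpr1a. The cause was not tested. Dim signals, such as that of Nog, limit what these arrays can show.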
